A study of Mus musculus with 2 samples.

Results

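The genes of the major histocompatibility complex (MHC) class I pathway were followed in CD11b-enriched cells of mouse cochleae. The 10 genes, taken by symbol from the 48709 genes of the count tables, were H2-K1, H2-D1, B2m, Tap1, Tap2, Tapbp, Nlrc5, Psmb8, Psmb9 and Psmb10. All 10 were detected in both libraries.

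MHC class I molecules show peptides made inside the cell to CD8 T cells. A polymorphic heavy chain (H2-K1 or H2-D1 in this strain) pairs with beta-2 microglobulin (B2m), and the pair is loaded in the endoplasmic reticulum with peptides that the transporter Tap1 and Tap2 brings in and that the chaperone tapasin (Tapbp) helps to fit. Many of these peptides are cut by the proteasome, whose constitutive catalytic subunits Psmb6, Psmb7 and Psmb5 are exchanged for Psmb9, Psmb10 and Psmb8 in the immunoproteasome, and Nlrc5 encodes the transactivator of class I genes.

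The implanted library came from cochleae that carried an electrode, and the non-implanted library from cochleae without one. Per the labels, the mice of both libraries were C57BL/6J/B6 of genotype CX3CR1+/GFP Thy1+/YFP, both sexes were pooled, and the cells were CD11b+. Per the series design text, cells were collected 33 days after surgery from implanted and opposite ears and selected with CD11b magnetic beads. The labels do not say whether the electrode released a drug, how many animals or of what age were pooled, or whether the non-implanted cochleae were the opposite ears, and their dissection protocol is for another tissue and other ages.

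With 1 library per group, no difference has a replicate check and no test was made. Intervals are exact 95% intervals of the counts and cover counting error only. After filtering, the implanted library held 3065 cells (median 4237 unique molecular identifiers, UMIs) and the non-implanted library 3411 cells (median 4150), with 5 cell barcodes in common. Ptprc, the general leukocyte gene, was detected in 90.0% and 93.1% of the implanted and non-implanted cells, whereas Itgam, which encodes CD11b, had 0 UMIs in both tables, so the CD11b label could not be checked on its own gene. Cells were grouped by clustering without the 10 genes, and a name ending in "-like" rests on marker transcripts alone. The implanted and non-implanted libraries held 286 and 249 macrophage-like, 315 and 269 monocyte-like, 1160 and 1512 neutrophil-like, 1134 and 1247 granulocyte precursor-like, 40 and 32 B cell-like and 78 and 41 erythroid-like cells. A further 11 and 28 osteoclast-like cells were too few to be compared, since a group needed at least 20 cells in each library. Precursor-like cells comprised the promyelocyte, cycling precursor and immature stages, and neutrophil-like cells the transitional, mature and activated stages, each named from its markers.

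Of the 10 genes, 7 lie on chromosome 17, 2 on chromosome 8 and 1 on chromosome 2 (GENCODE M21 annotation, build GRCm38). H2-K1 (ENSMUSG00000061232.15) spans chr17:33996017-34000347 on the minus strand and H2-D1 (ENSMUSG00000073411.11) chr17:35262730-35267499 on the plus strand. Psmb9 (minus strand), Tap1, Psmb8 and Tap2 (plus strand) lie side by side within 34335 bases from 34181987 to 34216321 of chromosome 17, where the Tap1 and Psmb9 gene bodies overlap head to head. Tapbp is at chr17:33915899-33929292 and B2m at chr2:122147686-122153083 (both plus strand). Nlrc5 is at chr8:94434356-94527272 on the plus strand and Psmb10 at chr8:105935735-105938444 on the minus strand.

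The promoters of the presenting genes share a short arrangement of letters, and they are printed so that it can be seen. RefSeq promoter windows (build GRCm38.p6, 250 bases before to 50 after the annotated start) were at hand for 8 of the 10 genes. H2-K1 had 2 entries, of which only the first was searched and printed. Class I promoters are known for an SXY module, in which an X2 box with a cyclic-AMP response motif (TGACG) precedes a Y box (CCAAT, or ATTGG on the other strand), and for binding sites of NF-kappa B and of interferon-activated factors. The windows below run 5′ to 3′ on the strand of the gene, and capitals mark matches on either strand to these boxes, to the NF-kappa B motif GGGNNTTCC, to the gamma-activated site TTCNNNGAA and to the interferon-stimulated response element (GAAA repeated after 2 bases).
H2-K1, chr17:34000298-34000597, minus strand: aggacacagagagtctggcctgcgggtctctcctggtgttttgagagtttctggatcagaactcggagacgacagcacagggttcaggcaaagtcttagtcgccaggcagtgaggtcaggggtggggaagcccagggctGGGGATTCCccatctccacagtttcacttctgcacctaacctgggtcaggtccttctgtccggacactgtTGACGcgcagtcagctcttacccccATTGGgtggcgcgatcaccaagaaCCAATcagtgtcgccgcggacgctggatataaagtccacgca
H2-D1, chr17:35262844-35263143, plus strand: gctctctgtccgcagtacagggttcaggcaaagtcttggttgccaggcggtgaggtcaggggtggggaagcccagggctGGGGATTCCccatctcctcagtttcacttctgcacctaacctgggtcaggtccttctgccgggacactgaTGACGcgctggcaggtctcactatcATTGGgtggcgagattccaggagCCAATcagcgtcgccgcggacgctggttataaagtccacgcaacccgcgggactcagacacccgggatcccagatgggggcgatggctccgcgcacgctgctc
B2m, chr2:122147437-122147736, plus strand: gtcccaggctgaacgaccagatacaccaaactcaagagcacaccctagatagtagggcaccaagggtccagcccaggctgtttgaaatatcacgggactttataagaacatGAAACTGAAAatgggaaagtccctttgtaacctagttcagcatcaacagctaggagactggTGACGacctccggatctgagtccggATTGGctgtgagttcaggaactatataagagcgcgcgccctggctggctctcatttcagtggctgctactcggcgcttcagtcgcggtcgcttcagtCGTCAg
Psmb8, chr17:34197945-34198244, plus strand: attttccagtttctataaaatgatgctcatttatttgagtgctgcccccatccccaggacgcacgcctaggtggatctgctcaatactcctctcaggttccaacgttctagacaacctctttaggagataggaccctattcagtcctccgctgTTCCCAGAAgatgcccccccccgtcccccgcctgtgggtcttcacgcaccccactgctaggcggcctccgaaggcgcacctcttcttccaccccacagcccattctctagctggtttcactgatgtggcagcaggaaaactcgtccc

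In H2-K1, H2-D1 and B2m, TGACG was followed after exactly 20 bases by ATTGG. That spaced pair was found in 26 of 27025 RefSeq mouse promoter windows (0.0962%), among them 3 of the 8 class I pathway windows and that of the non-classical class I gene H2-M3. The gap searched was the one seen in H2-K1, H2-D1 and B2m, so their place among the 26 was fixed in advance. H2-K1 and H2-D1 are also paralogs with similar windows, so they are not separate finds. In the windows used, TGACG began 41 bases before the annotated start of H2-K1 and 101 bases before that of H2-D1. Taken singly the letters are common: TGACG occurred in 21.0% and CCAAT in 37.9% of all windows, and in 5 and 6 of the 8. The NF-kappa B motif occurred in 5.72% of all windows and in H2-K1 and H2-D1, the letters used for the interferon-stimulated response element in 3.49% and in B2m, and the gamma-activated site in 8.47% and in Psmb8. Only these exact letters were searched, so a window without a match can still hold a variant of such an element. The Psmb10 window held none of these matches, and the Tap1 and Psmb9 windows, which lie back to back, overlap by 275 bases. A match describes the letters only, and whether any factor bound there was not tested.

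The level of a gene in a cell class is given as its UMIs per 1e6 UMIs (CPM) of that class in that library. In this 3′ assay counts do not scale with transcript length, but capture can differ between genes, so differences between genes in level are descriptive. H2-K1 and H2-D1 are paralogs: of the 50-base windows in the last 500 bases of their transcripts, 9.60% and 8.92% also occurred in other genes, including each other, and the read length is not given in the sources used here. At 90 bases the shared part was 0.151% for H2-K1 and 0 for H2-D1.

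Among the presenting genes, H2-D1 was high in every mature myeloid class, whereas H2-K1 and B2m were far higher in macrophage-like and monocyte-like than in neutrophil-like cells. H2-D1 was at 1810 CPM (1749 to 1872) and 1654 CPM (1589 to 1720) in the implanted and non-implanted macrophage-like cells, 1713 and 1655 CPM in monocyte-like, 1614 and 1582 CPM in neutrophil-like and 449.3 and 456.2 CPM in precursor-like cells. H2-K1 was at 1138 CPM (1089 to 1187) and 1210.0 CPM (1155 to 1267) in implanted and non-implanted macrophage-like, 834.5 and 776.8 CPM in monocyte-like, 260.9 and 252.7 CPM in neutrophil-like and 150.1 and 160.7 CPM in precursor-like cells. Macrophage-like cells thus stood 4.36 (4.02 to 4.73) and 4.79 (4.44 to 5.17) times above neutrophil-like cells in H2-K1 in the implanted and non-implanted libraries, but 1.12 (1.07 to 1.17) and 1.05 (0.998 to 1.09) times in H2-D1.

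B2m, the light chain that both heavy chains need, placed the 4 myeloid classes in the order that H2-K1 did. Its level was 1702 and 1701 CPM in implanted and non-implanted macrophage-like, 1395 and 1366 CPM in monocyte-like, 589.4 and 557 CPM in neutrophil-like and 389.8 and 409 CPM in precursor-like cells. B cell-like cells had 985.1 and 1128 CPM of H2-K1, 1155 and 1268 CPM of H2-D1 and 1121 and 1012 CPM of B2m in the implanted and non-implanted libraries. Erythroid-like cells were lowest of these classes with 106.8 and 116.4 CPM of H2-K1, 247.5 and 246.1 CPM of H2-D1 and 319.2 and 394.8 CPM of B2m. For B2m in the non-implanted library their interval (342.9 to 452.5 CPM) took in the precursor-like level of 409 CPM. In erythroid-like cells 1 cell carried 16.5% and 34.4% of the H2-K1 UMIs. Free RNA can reach every droplet, and its part in these erythroid-like levels was not estimated.

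In the order of levels over the groups with at least 20 cells in each library, neighbours were often not apart. For H2-D1 in the implanted library the intervals of the macrophage-like, mature, monocyte-like and activated groups each overlapped the next. The transitional (1415 CPM), B cell-like (1155 CPM) and promyelocyte (549.8 CPM) groups followed, each with an interval below that of the group before it. For H2-K1 the macrophage-like, B cell-like and monocyte-like groups led in both libraries, and the next group, activated neutrophils, was at 337.8 CPM (309.3 to 368.2) in implanted and 289.8 CPM (265 to 316.4) in non-implanted cells.

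**Figure D1:**
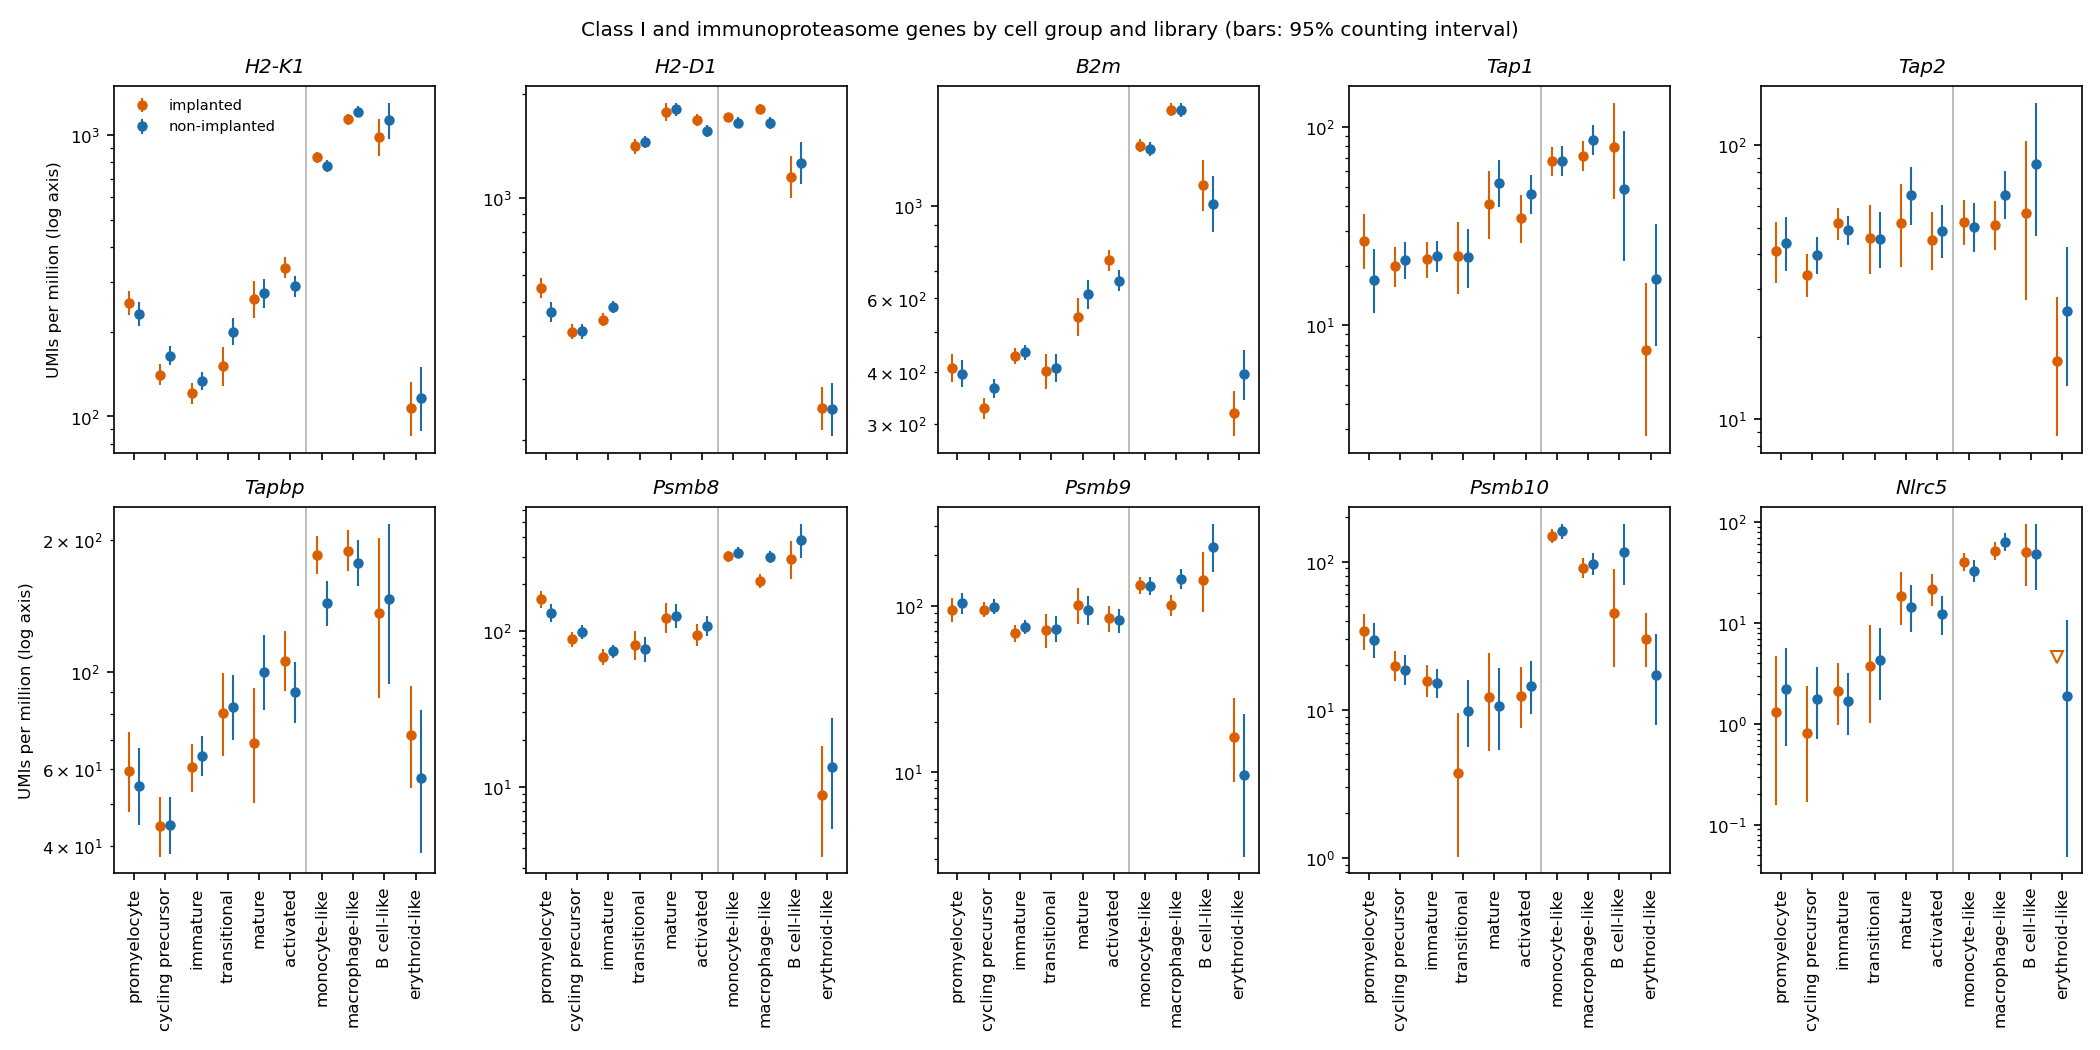
Levels of the 10 genes (CPM, log axis) in each cell class and neutrophil stage, with points for the implanted and non-implanted libraries, bars for exact 95% counting intervals and an open triangle for the upper limit where no UMI was found. H2-D1 is at 1415 CPM or more from the transitional stage on and in macrophage-like and monocyte-like cells, while H2-K1, B2m and Nlrc5 are, of the groups plotted, highest in macrophage-like, monocyte-like and B cell-like cells.

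The loading genes were expressed at lower levels. Tapbp, the peptide-loading chaperone, was at 189 and 177.4 CPM in implanted and non-implanted macrophage-like, 184.6 and 143.3 CPM in monocyte-like, 89.95 and 89.79 CPM in neutrophil-like and 54 and 55.8 CPM in precursor-like cells. Tap1 was at 71.9 and 86.7 CPM in macrophage-like, 67.5 and 67.7 CPM in monocyte-like, 31.9 and 38.6 CPM in neutrophil-like and 21.8 and 21.1 CPM in precursor-like cells of the implanted and non-implanted libraries. Its partner in the transporter, Tap2, was the flattest of the 10 genes, with 51.2 and 66 CPM in macrophage-like, 52.4 and 50.4 CPM in monocyte-like, 46.7 and 51.6 CPM in neutrophil-like and 43.1 and 44.9 CPM in precursor-like cells. The ratio of neutrophil-like to precursor-like cells was 1.47 (1.15 to 1.87) for Tap1 and 1.08 (0.893 to 1.31) for Tap2 in the implanted library, and 1.83 (1.49 to 2.24) and 1.15 (0.979 to 1.35) in the non-implanted library.

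Of the immunoproteasome subunits, Psmb10 differed most between monocyte-like and neutrophil-like cells. Psmb10 was at 150 and 160.1 CPM in implanted and non-implanted monocyte-like cells, 91 and 96.7 CPM in macrophage-like, 9.52 and 11.9 CPM in neutrophil-like, 20.3 and 18.8 CPM in precursor-like and 30.2 and 17.2 CPM in erythroid-like cells. Monocyte-like cells were 15.8 (10.9 to 23.6) and 13.5 (10 to 18.5) times above neutrophil-like cells in the implanted and non-implanted libraries for Psmb10, against 3.15 (2.75 to 3.62) and 3.19 (2.81 to 3.61) times for Psmb8 and 1.60 (1.35 to 1.90) and 1.62 (1.37 to 1.91) times for Psmb9. There were thus 0.497 and 0.501 UMIs of Psmb10 per UMI of Psmb8 in implanted and non-implanted monocyte-like cells, but 0.0994 and 0.119 in neutrophil-like cells. The monocyte-like clusters were not alike in this. The cluster marked by Ace and Adgre4 (41 and 43 cells) had 0.214 and 0.258, from 12 and 16 Psmb10 UMIs. The cluster marked by Vcan had 0.507 and 0.556, and that marked by F13a1 and Ccr2 had 0.543 and 0.504. The full immunoproteasome holds all 3 subunits, and their transcripts were present in different proportions in monocyte-like and neutrophil-like cells. How the proteins were assembled was not measured. Psmb8 itself was at 301.7 and 319.6 CPM in monocyte-like, 210.8 and 300 CPM in macrophage-like, 95.8 and 100.3 CPM in neutrophil-like, 91.2 and 92.1 CPM in precursor-like and 8.80 and 13.4 CPM in erythroid-like cells. Psmb9 was at 132.6 and 131.2 CPM in monocyte-like, 100.2 and 144.7 CPM in macrophage-like, 82.9 and 81.1 CPM in neutrophil-like and 82.8 and 87.8 CPM in precursor-like cells. B cell-like cells had 288.7 and 384.2 CPM of Psmb8 and 141.5 and 225.6 CPM of Psmb9, with intervals that overlapped those of monocyte-like cells for Psmb8 and, in the implanted library, for Psmb9.

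Nlrc5, the class I transactivator, was the rarest of the 10 transcripts in precursor-like cells. It was at 51.8 and 64 CPM in implanted and non-implanted macrophage-like, 40.6 and 33.1 CPM in monocyte-like, 51 and 48.8 CPM in B cell-like and 15 and 9.82 CPM in neutrophil-like cells. Precursor-like cells had 1.49 and 1.80 CPM, from 14 and 20 UMIs. Erythroid-like cells had 0 UMIs in the implanted library, which allows up to 4.64 CPM, and 1 UMI in the non-implanted library.

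A gene was counted as higher or lower where it differed at least 1.5-fold on the log2(CPM + 5) scale, in a comparison where it had at least 20 UMIs over both groups. Between monocyte-like and neutrophil-like cells, 8 of the 10 genes were higher and 0 lower in each library, against 59.8% and 58.8% of all genes measured that were higher and 12.0% in each library that were lower. The exceptions in both were H2-D1 and Tap2. Between macrophage-like and neutrophil-like cells, 7 and 8 genes were higher and 0 lower in the implanted and non-implanted libraries, against 56.8% and 55.9% of all genes that were higher and 13.6% in each that were lower. Most genes thus went the way of the 10, and the mean UMIs per cell were 6418 and 6023 in macrophage-like and 2808 and 2895 in neutrophil-like cells. Macrophage-like and monocyte-like cells were closer: 0 genes were higher and 1 lower in the implanted library (15.6% and 15.8% of all genes), and 2 were higher and 1 lower in the non-implanted library (14.4% and 14.5%). The lower gene was Psmb10 in both, at 0.607 (0.501 to 0.733) and 0.604 (0.492 to 0.738) of the monocyte-like level.

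Along neutrophil maturation, H2-D1 was far higher by CPM at the transitional than at the immature stage, a step that was smaller for H2-K1 and not seen for B2m. In the order promyelocyte, cycling precursor, immature, transitional, mature and activated, H2-D1 was at 549.8, 411.6, 445.7, 1415, 1776 and 1684 CPM in the implanted library. The same stages had 468.4, 412.5, 484.6, 1456, 1807 and 1567 CPM in the non-implanted library. The intervals of the transitional stage (1344 to 1488 and 1398 to 1516 CPM in the implanted and non-implanted libraries) lay wholly above those of the immature stage (425.8 to 466.3 and 466.1 to 503.7 CPM). H2-K1 was at 253, 140.9, 120.7, 151.2, 260.9 and 337.8 CPM over the same stages in the implanted library and at 231.2, 164.5, 133.6, 200.1, 273.6 and 289.8 CPM in the non-implanted library. H2-K1 was thus lowest at the immature stage, and its intervals at the immature and transitional stages overlapped in the implanted library (110.4 to 131.6 and 128.8 to 176.3 CPM) but not in the non-implanted library (124 to 143.8 and 178.9 to 223 CPM). B2m was at 408.9, 327.3, 437.4, 401.3, 543.1 and 741 CPM in the implanted library and at 396.5, 365.3, 446, 410.0, 614.1 and 661.6 CPM in the non-implanted library.

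Whether such a change is read as a share of all UMIs or per cell matters here, because neutrophil-like cells held 2808 and 2895 UMIs on average and precursor-like cells 8313 and 8914 in the implanted and non-implanted libraries. H2-D1 had 4.53 and 4.58 UMIs per neutrophil-like cell against 3.74 and 4.07 per precursor-like cell, so it was higher in neutrophil-like cells on both scales: 3.59 times (3.45 to 3.74) and 3.47 times (3.34 to 3.60) by CPM and 1.21 times (1.17 to 1.26) and 1.13 times (1.09 to 1.17) per cell in the implanted and non-implanted libraries. Stage by stage, H2-D1 had 6.80, 5.69, 2.53, 4.62, 4.60 and 4.45 UMIs per cell from promyelocytes to activated neutrophils in the implanted library and 5.96, 6.21, 3.07, 4.85, 4.70 and 4.30 in the non-implanted library. Per cell it was thus above the immature stage in all 3 later stages but below the deeper promyelocytes and cycling precursors. H2-K1 was 1.74 (1.60 to 1.89) and 1.57 (1.46 to 1.70) times higher by CPM but at 0.587 and 0.511 of the precursor-like level per cell. For B2m the CPM ratios were 1.51 (1.43 to 1.60) and 1.36 (1.30 to 1.43), and the per-cell ratios 0.511 and 0.442. A lower level of a gene per cell and a smaller total of RNA captured per cell cannot be told apart from these counts. Besides H2-D1, only Nlrc5 among the 10 genes stood above the precursor-like level on both scales in both libraries, at 10.1 (5.50 to 19.9) and 5.46 (3.14 to 9.80) times by CPM and 3.42 (1.86 to 6.71) and 1.77 (1.02 to 3.18) times per cell.

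**Figure D2:**
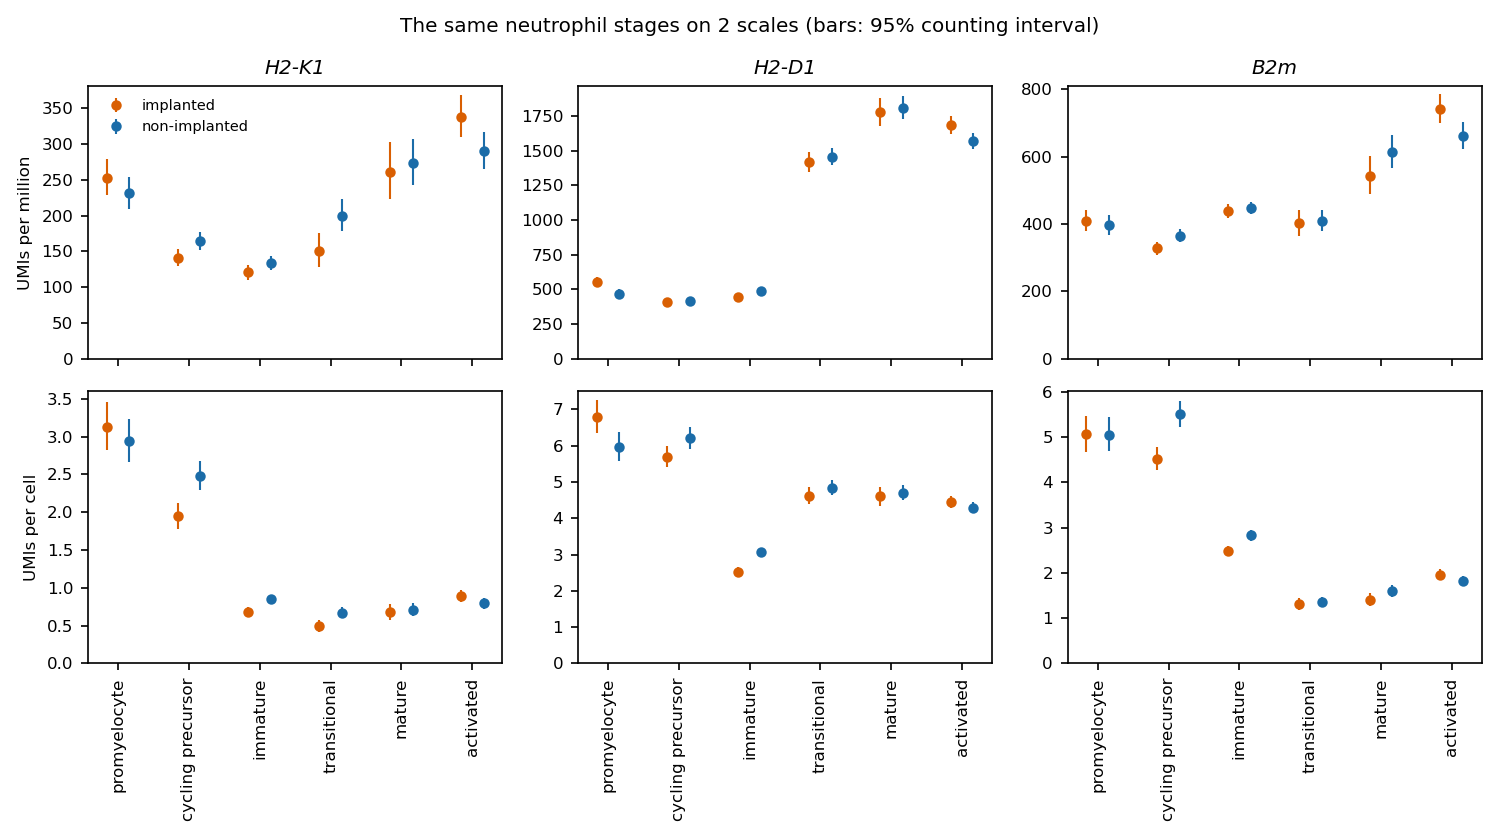
Levels of H2-K1, H2-D1 and B2m over the 6 neutrophil stages as CPM (upper row) and as UMIs per cell (lower row), with points for the implanted and non-implanted libraries and bars for exact 95% counting intervals. All 3 genes are highest by CPM in mature or activated neutrophils, whereas per cell they are highest in promyelocytes or cycling precursors and H2-D1 is again higher from the transitional stage on than at the immature stage.

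By CPM, 5 of the 10 genes were higher and 1 lower in neutrophil-like than in precursor-like cells of the implanted library (19.5% and 35.4% of all genes), and 5 were higher and 0 lower in the non-implanted library (19.1% and 31.3%). H2-D1, H2-K1, Tapbp and Nlrc5 were higher in both. The fifth was B2m in the implanted library (log2 difference 0.59, against 0.44 in the non-implanted library) and Tap1 in the non-implanted library (0.74, against 0.47 in the implanted library). Per cell, H2-K1, Tapbp, B2m and Tap1 changed direction. Psmb10 was lower in neutrophil-like cells, at 0.470 (0.311 to 0.689) and 0.632 (0.457 to 0.860) of the precursor-like level by CPM in the implanted and non-implanted libraries, and was past the threshold in the implanted library alone. Psmb8 and Psmb9 were level by CPM, with ratios of 1.05 and 1.00 in the implanted library and 1.09 and 0.924 in the non-implanted library, but were at 0.355 and 0.338 and at 0.354 and 0.300 of the precursor-like level per cell. The median log2 difference of the 10 genes was 0.53 and 0.54 in the implanted and non-implanted libraries, and that of all genes measured was -0.29 and -0.22.

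The mature stage set against the immature stage gave 5 higher and 0 lower genes in the implanted library and 6 higher and 0 lower in the non-implanted library, against 25.4% and 24.7% of all genes that were higher and 26.6% and 25.2% that were lower. Nlrc5 was 8.58 (3.32 to 23.1) and 8.60 (3.53 to 22.3) times higher in mature than in immature cells of the implanted and non-implanted libraries, from 12 and 15 UMIs in mature and 9 and 9 UMIs in immature cells. H2-D1 was 3.98 (3.70 to 4.29) and 3.73 (3.51 to 3.96) times higher by CPM and 1.82 and 1.53 times higher per cell. Psmb8 was 1.79 (1.38 to 2.30) and 1.69 (1.37 to 2.07) times higher by CPM in the implanted and non-implanted libraries, but at 0.817 and 0.695 of the immature level per cell. The mature stage includes a cluster marked by interferon-induced genes, of 36 implanted and 35 non-implanted cells, described below. That cluster held a large part of the mature Nlrc5 UMIs. It also held 24 of 80 implanted and 23 of 129 non-implanted Psmb8 UMIs of the mature stage. The comparison of mature with immature cells was not repeated without that cluster.

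The balance of the 2 heavy chains within the same cells does not depend on the scale, and it was looked at after the levels had been seen. In the order promyelocyte, cycling precursor, immature, transitional, mature and activated there were 2.17, 2.92, 3.69, 9.36, 6.81 and 4.99 UMIs of H2-D1 per UMI of H2-K1 in the implanted library. The non-implanted library had 2.03, 2.51, 3.63, 7.28, 6.60 and 5.41. The ratio was highest at the transitional stage, at 9.36 (7.95 to 11.1) and 7.28 (6.48 to 8.20), and lower again in activated neutrophils, at 4.99 (4.53 to 5.49) and 5.41 (4.91 to 5.96) in the implanted and non-implanted libraries. Outside the neutrophil lineage it was near 1 or 2: 1.59 and 1.37 in macrophage-like, 2.05 and 2.13 in monocyte-like, 1.17 and 1.12 in B cell-like and 2.32 and 2.12 in erythroid-like cells. Neutrophil-like cells had 6.19 (5.75 to 6.66) and 6.26 (5.88 to 6.68), against 2.99 (2.82 to 3.18) and 2.84 (2.69 to 3.00) in precursor-like cells.

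B2m did not keep pace with the summed heavy chains. There were 0.314 and 0.304 UMIs of B2m per UMI of H2-K1 and H2-D1 together in implanted and non-implanted neutrophil-like cells, against 0.650 and 0.663 in precursor-like cells. At the immature stage the value was 0.772 and 0.722, and at the transitional stage 0.256 and 0.248. In macrophage-like cells it was 0.578 and 0.594 and in monocyte-like cells 0.548 and 0.562.

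**Figure D3:**
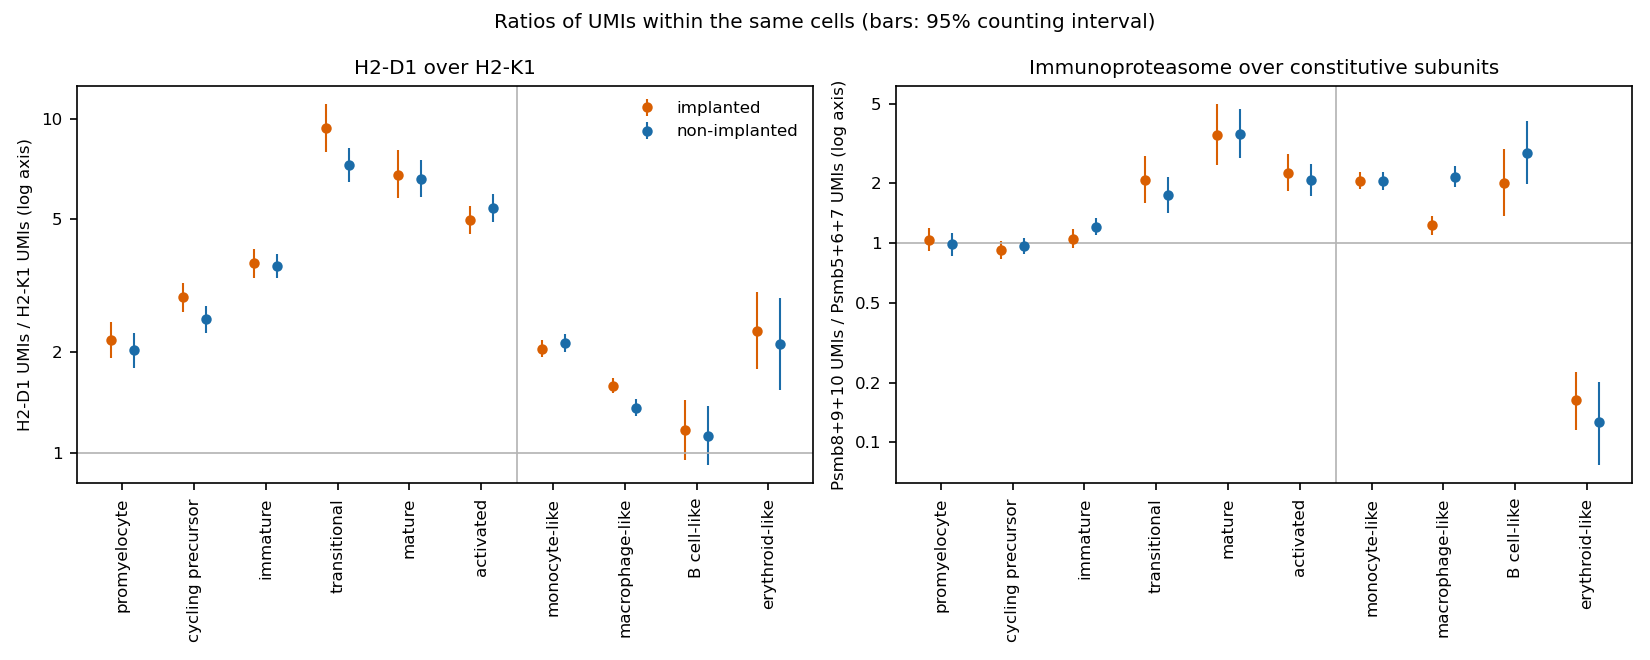
Ratios of UMIs within the same cells (log axes) by class and stage in the implanted and non-implanted libraries, with exact 95% counting intervals: H2-D1 over H2-K1, and the immunoproteasome subunits Psmb8, Psmb9 and Psmb10 summed over the constitutive subunits Psmb5, Psmb6 and Psmb7. The heavy-chain ratio is highest at the transitional stage, and the subunit ratio is near 1 in the precursor stages and highest, at 3.50 and 3.54, in mature neutrophils.

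The exchange of proteasome subunits was also read as a ratio within the same cells. Over the 6 stages in order, there were 1.05, 0.926, 1.06, 2.09, 3.50 and 2.26 UMIs of the 3 immunoproteasome subunits per UMI of the 3 constitutive subunits in the implanted library. The non-implanted library had 0.988, 0.972, 1.21, 1.76, 3.54 and 2.08. Neutrophil-like cells had 2.42 (2.09 to 2.82) and 2.21 (1.96 to 2.50), and precursor-like cells 0.996 (0.933 to 1.06) and 1.06 (0.996 to 1.12), in the implanted and non-implanted libraries. The immunoproteasome sum itself was level by CPM, at 188.2 and 193.3 CPM in neutrophil-like and 194.3 and 198.7 CPM in precursor-like cells, whereas the constitutive sum was 77.7 and 87.5 CPM in neutrophil-like and 195.1 and 187.8 CPM in precursor-like cells. By CPM the difference in ratio thus lay in the constitutive subunits, and per cell both sums were lower in neutrophil-like cells.

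The pairs did not move alike. In neutrophil-like cells Psmb9 over Psmb6 was 3.18 and 2.91 and Psmb8 over Psmb5 was 2.81 and 2.36, against 0.984 and 1.18 and 1.12 and 1.03 in precursor-like cells of the implanted and non-implanted libraries. Psmb10 over Psmb7 was 0.544 and 0.693 in neutrophil-like and 0.695 and 0.792 in precursor-like cells. Erythroid-like cells stood at the other end, with 0.164 and 0.127 immunoproteasome UMIs per constitutive UMI, and monocyte-like cells had 2.07 and 2.05.

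Between the implanted and non-implanted libraries, 0 of the 10 genes differed by 1.5-fold in macrophage-like, monocyte-like, neutrophil-like or precursor-like cells. Of all genes measured, 17.0% did so in macrophage-like, 5.02% in monocyte-like, 2.70% in neutrophil-like and 0.982% in precursor-like cells. Under other ways of clustering and filtering the count of the 10 genes past the threshold, over these 4 classes together, was between 0 and 4. The median log2 difference of the 10 genes was -0.17, 0.04, 0.02 and -0.05 in these classes in the same order, and that of all genes -0.01, 0.01, 0.00 and 0.05.

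In macrophage-like cells 2 of the 3 immunoproteasome subunits, Psmb8 and Psmb9, had ratios below 1 with intervals clear of 1, although neither passed the 1.5-fold threshold. Their log2 differences were -0.50 and -0.51. Under other ways of processing they lay between -1.39 and -0.12 for Psmb8 and between -0.88 and 0.0076 for Psmb9, so the Psmb9 difference was absent under some settings. The presenting genes summed to 4650.0 CPM in implanted and 4565 CPM in non-implanted cells, a ratio of 1.02. Within that sum H2-D1 was higher in the implanted library, at 1810 CPM (1749 to 1872) against 1654 CPM (1589 to 1720). H2-K1 was lower there, at 1138 CPM (1089 to 1187) against 1210.0 CPM (1155 to 1267), with overlapping intervals. B2m was at 1702 and 1701 CPM. Psmb8 was at 210.8 and 300 CPM, a ratio of 0.703 (0.612 to 0.807), and Psmb9 at 100.2 and 144.7 CPM, a ratio of 0.693 (0.566 to 0.847). Psmb10 was at 91 and 96.7 CPM, a ratio of 0.941 (0.749 to 1.18). The 3 subunits together were at 402.1 and 541.4 CPM in the implanted and non-implanted libraries, a ratio of 0.743 (0.671 to 0.822). Their constitutive counterparts summed to 325.2 and 250 CPM, a ratio of 1.30 (1.14 to 1.48). Immunoproteasome UMIs per constitutive UMI accordingly numbered 1.24 (1.11 to 1.38) in the implanted library, against 2.17 (1.91 to 2.45) in macrophage-like cells of the non-implanted library.

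That contrast moved with the makeup of the class. A cluster marked by Mmp12 and Spp1, genes of tissue-remodelling macrophages, held 63 implanted and 2 non-implanted cells, and without it the constitutive ratio was 0.959 (0.818 to 1.12), Psmb8 0.729 (0.622 to 0.852), Psmb9 0.781 (0.623 to 0.975) and the presenting sum 0.913, with 0 of the 10 genes past the threshold (12.0% of all genes). The log2 difference of the immunoproteasome over the constitutive subunits was -0.81, and -0.34 without that cluster. Within the C1q-expressing cluster with high MHC class II, which held 124 implanted and 165 non-implanted cells, the ratio of immunoproteasome to constitutive UMIs was 1.64 and 2.28. A further C1q-expressing cluster of the class held 99 implanted and 82 non-implanted shallow cells (median 1057 and 1290 UMIs). In it S100a8 and S100a9 made up 12.5% and 12.4% of the UMIs. With the libraries clustered apart from each other, only 87 implanted and 72 non-implanted cells were named macrophage-like, and there the log2 differences of the presenting and processing sums were -0.36 and -0.82, against a median of 0.31 over all genes. Neutrophil transcripts also differed in this class: S100a8 and S100a9 made up 3.51% of its UMIs in the implanted library, against 5.56% in the non-implanted one. The summed neutrophil markers, of which 17 of 18 were detected and Stfa2 was at 0 in both, were at 45180.0 and 63230.0 CPM. The summed dendritic markers were at 13990.0 and 24530.0 CPM, with 10 and 11 of 12 detected and Irf8 at 0 in all classes of both libraries. That list shares H2-Aa and Cd74, which belong to the MHC class II pathway, with the macrophage list. B cell-like cells were at 8934 and 16580.0 CPM on it. The sum therefore does not measure dendritic cells alone. The granulocyte precursor markers, 16 and 15 of 16 detected, summed to 10380.0 and 20170.0 CPM. The erythroid markers went the other way, at 2106 CPM in implanted and 330.0 CPM in non-implanted macrophage-like cells, with 9 and 8 of 9 detected and Slc4a1 at 0 in the non-implanted library. The part of these differences in makeup in the result was not tested.

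The Mmp12 cluster differed from the MHC class II-high cluster of the same implanted library in both directions. H2-D1 was at 2332 CPM in the Mmp12 cluster and 1509 CPM in the MHC class II-high cluster, a ratio of 1.55 (1.44 to 1.66). Nlrc5 was at 22.1 and 77.4 CPM, a ratio of 0.285 (0.152 to 0.501), from 15 UMIs in the Mmp12 cluster. Of the 10 genes, 1 was higher and 1 lower there, against 13.8% and 25.2% of all genes. The constitutive subunits were 1.96 (1.65 to 2.33) times higher in the Mmp12 cluster and the immunoproteasome subunits were at 0.981 (0.836 to 1.15) of the MHC class II-high level. Immunoproteasome UMIs per constitutive UMI thus numbered 0.819 (0.693 to 0.967) within the Mmp12 cluster and 1.64 (1.39 to 1.93) within the MHC class II-high cluster.

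**Figure D4:**
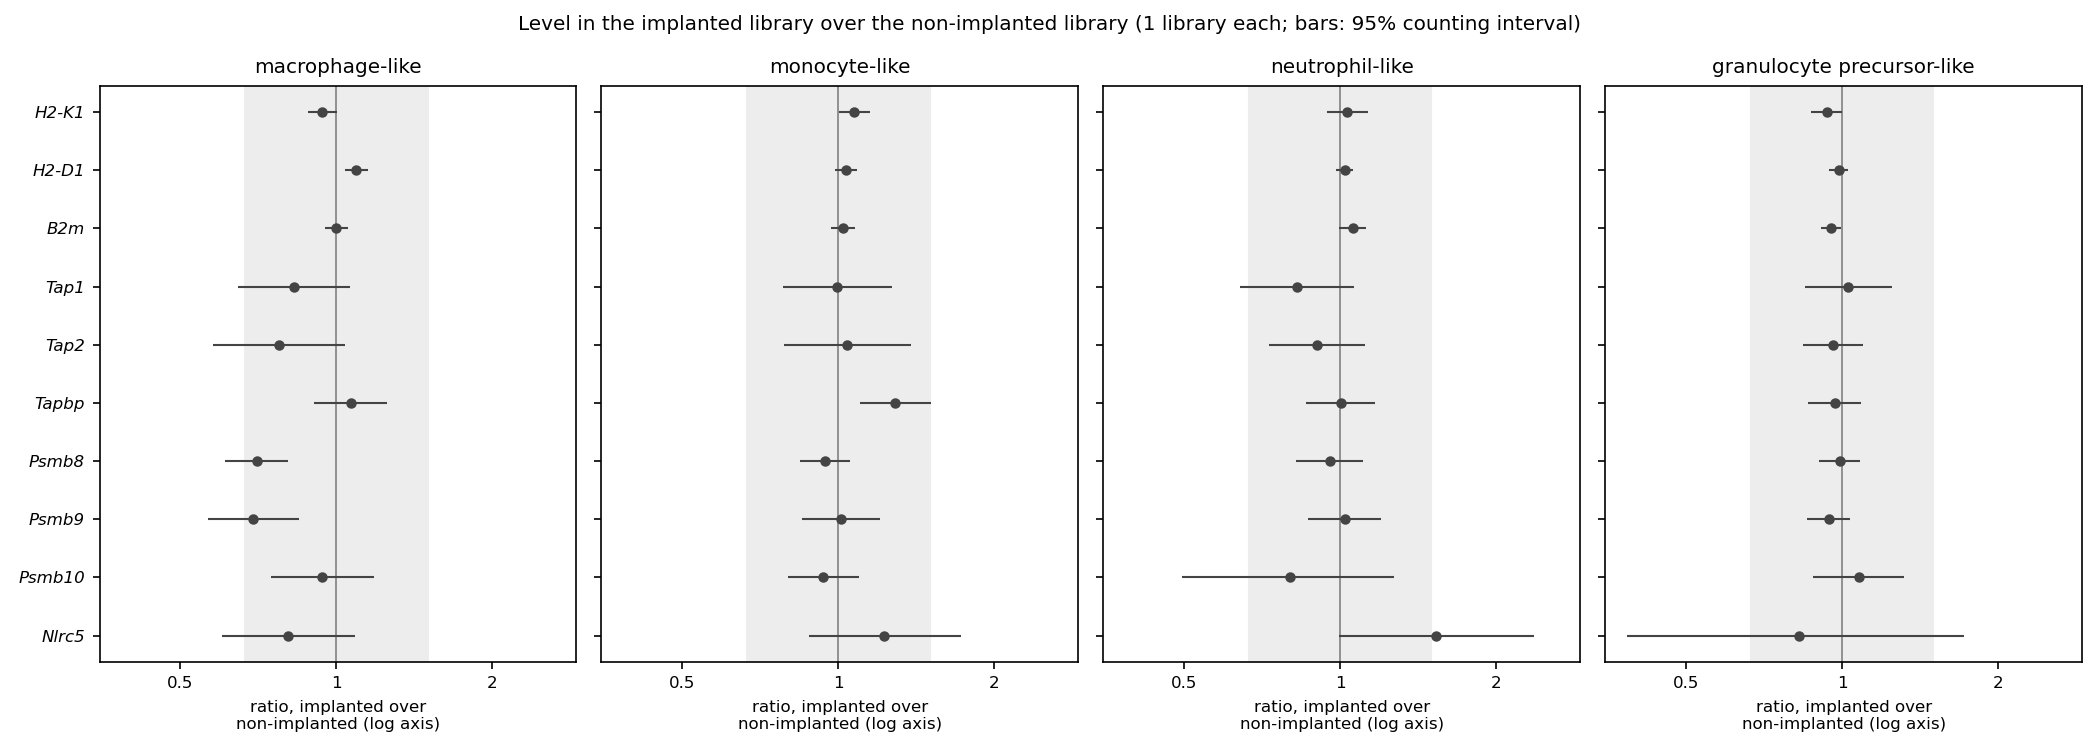
Ratio of the implanted to the non-implanted library for each of the 10 genes (log axis) in 4 cell classes, with exact 95% counting intervals and a grey band from 1.5-fold lower to 1.5-fold higher. Psmb8 at 0.703 and Psmb9 at 0.693 in macrophage-like cells are the lowest of the 40 ratios, and no point passes the 1.5-fold threshold on the log2(CPM + 5) scale.

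The presenting genes summed to 3943 CPM in implanted and 3798 CPM in non-implanted monocyte-like cells, 2464 and 2392 CPM in neutrophil-like and 989.2 and 1026 CPM in precursor-like cells. In these 3 classes the widest ratio of a single gene with an interval clear of 1 was that of Tapbp in monocyte-like cells, at 184.6 and 143.3 CPM, a ratio of 1.29 (1.10 to 1.51). In neutrophil-like cells Nlrc5 was at 15 CPM in implanted and 9.82 CPM in non-implanted cells, a ratio of 1.53 (0.996 to 2.36) from 49 and 43 UMIs, and a log2 difference of 0.44 with the pseudocount. Taken by stage, 0 of the 10 genes passed the threshold in promyelocytes (10.9% of all genes), cycling precursors (2.06%), immature cells (1.80%) and mature neutrophils (11.3%). Among activated neutrophils 1 passed (7.45% of all genes), Nlrc5, at 21.6 and 12.2 CPM with a ratio of 1.77 (0.993 to 3.21). Among transitional neutrophils 1 passed (7.47%), Psmb10, at 3.73 and 9.85 CPM from 4 and 16 UMIs with a ratio of 0.379 (0.0922 to 1.18). Both intervals include 1. Short of the threshold, 10 ratios had intervals clear of 1, out of the ratios of all 10 genes in every stage. Examples were Tapbp at 0.687 (0.473 to 0.984) in mature and H2-K1 at 0.756 (0.622 to 0.915) in transitional neutrophils. In activated neutrophils H2-K1 was at 1.17 (1.03 to 1.32), and in promyelocytes Psmb8 was at 1.23 (1.02 to 1.47). The share of all genes with such intervals was not counted, so whether 10 is many cannot be said. These intervals cover counting error only, with 1 library per group.

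In the small B cell-like and erythroid-like classes, ratios rested on few UMIs. In B cell-like cells 3 of the 9 genes measured passed the threshold (31.4% of all genes). Psmb9 was lower, at 141.5 CPM in implanted and 225.6 CPM in non-implanted cells, a ratio of 0.627 (0.362 to 1.07) from 25 and 37 UMIs. Psmb10 was lower as well, at 45.3 and 115.9 CPM, a ratio of 0.391 (0.148 to 0.935) from 8 and 19 UMIs. Tap1 was higher, at 79.3 and 48.8 CPM, a ratio of 1.63 (0.636 to 4.47) from 14 and 8 UMIs, so that only the interval of Psmb10 is clear of 1. In erythroid-like cells 1 of the 6 genes measured passed (17.8%), again Psmb10 but higher, at 30.2 and 17.2 CPM, a ratio of 1.76 (0.788 to 4.29) from 24 and 9 UMIs. In the 11 and 28 osteoclast-like cells H2-D1 was at 938.2 CPM (824.4 to 1063) in the implanted and 1450.0 CPM (1353 to 1552) in the non-implanted library.

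A small cluster of neutrophils marked by interferon-induced genes held 36 implanted and 35 non-implanted cells and was set against the other mature neutrophils of the same library (217 and 361 cells). Of the 8 genes with enough UMIs, 4 were higher among implanted and 5 among non-implanted cells, and 0 were lower, against 14.2% and 13% of all genes that were higher and 19.4% and 26.0% that were lower. Psmb8 was at 244.4 CPM in the implanted and 211.5 CPM in the non-implanted interferon cluster, 2.43 (1.44 to 3.99) and 1.84 (1.12 to 2.91) times the other mature cells. Nlrc5 had 6 and 7 UMIs there and ratios of 5.68 (1.52 to 21.2) and 7.42 (2.29 to 23.4), which fell short of the minimum of 20 UMIs. H2-D1, by contrast, was at ratios of 1.02 (0.862 to 1.20) and 1.13 (0.977 to 1.30).

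Of 58 further genes of the pathway, 50 were measured in macrophage-like cells, where 7 were higher and 4 lower in the implanted library (8.64% and 8.39% of all genes), and 3 of the 4 lower ones are named here. Among 16 other class I heavy chain genes, H2-M2 was at 45.2 CPM in implanted and 0.667 CPM in non-implanted cells. All 83 of its implanted UMIs lay in the Mmp12 cluster, 25.3% of them in 1 cell. H2-Q4 was lower, at 29.4 and 47.3 CPM, and Mr1, which presents vitamin B metabolites to T cells, higher, at 9.81 and 2.67 CPM. Of the genes that act in regulation, Rfx5, a subunit of the factor that binds the X box, was at 13.6 and 4.67 CPM and the kinase Jak2 at 137.3 and 76.7 CPM in the implanted and non-implanted libraries. Interferon-induced genes went both ways: Rsad2 was at 76.3 and 32.7 CPM and Ifit1 at 14.2 and 6.00 CPM, and Cxcl9, a chemokine for T cells, at 3.81 and 76.7 CPM and Gbp7 at 21.3 and 45.3 CPM. Jak2 was sixth by size, outside the rule of at most 5 named genes in a direction, and so was the seventh, Psme3, a proteasome activator subunit, at 32.7 and 19.3 CPM. In the MHC class II-high cluster of the non-implanted library 57.4% of the Cxcl9 UMIs came from 1 cell. Without the Mmp12 cluster 6 of 47 genes were higher and 2 lower, against 12.0% of all genes that passed in either direction. H2-M2, Mr1, H2-Q4 and Gbp7 then no longer passed, whereas Rfx5, Jak2, Rsad2, Ifit1 and Psme3 remained higher and Cxcl9 lower. The sixth higher gene was Rfxap, a further subunit of the X box factor, at 19.0 and 10.7 CPM from 22 and 16 UMIs.

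Fewer of these genes passed in the other classes. In monocyte-like cells 3 of 45 were higher, namely Rfxap (31 CPM implanted, 17.9 CPM non-implanted), Ifit1 (19.1 and 7.35 CPM) and Oasl2 (80.2 and 41.5 CPM), and 1 was lower, H2-Q10 (7.29 and 14.2 CPM), against 2.60% and 2.42% of all genes. In neutrophil-like cells 2 of 41 were higher, Irgm1 (10.1 and 5.03 CPM) and Ifit1 (22.1 and 13 CPM), and 0 were lower, against 1.66% and 1.05%. In precursor-like cells 0 of 42 passed in either direction, against 0.842% and 0.140%.

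Between neutrophil-like and precursor-like cells the same lists were counted by CPM alone, where 19.5% and 19.1% of all genes were higher and 35.4% and 31.3% lower in neutrophil-like cells of the implanted and non-implanted libraries. These genes, unlike the 10, were among those that could enter the clustering, so the counts describe the classes. Of the other heavy chain genes, 6 of 8 measured were higher and 0 lower in each library, and of the interferon-induced genes 10 of 10 were higher among implanted and 9 of 10 among non-implanted cells. Of the 5 helpers of trimming and loading, 4 were lower and 0 higher in each, and of the 7 further proteasome genes 6 and 4 were lower in the implanted and non-implanted libraries. As examples chosen after the values were seen, Calr, the chaperone calreticulin, was at 33.1 and 29.9 CPM in neutrophil-like and 76.4 and 59.1 CPM in precursor-like cells, and Pdia3, the oxidoreductase of the loading complex, at 32.9 and 28.8 CPM in neutrophil-like and 158.8 and 140.0 CPM in precursor-like cells. Regulators were mixed, with 7 higher and 3 lower of 14 in the implanted and 6 higher and 1 lower in the non-implanted library.

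The gene with the widest ratio in these lists, picked after its values had been seen, was H2-Q10, a class Ib heavy chain gene known chiefly from mouse liver. It was at 282.1 CPM (264.2 to 301.0) in implanted and 249 CPM (234.5 to 264.3) in non-implanted neutrophil-like cells, against 2.97 and 3.33 CPM in precursor-like cells. Over the 6 stages in order it had 1.96, 0.816, 5.21, 173.6, 376.8 and 317.6 CPM in the implanted library and 3.84, 1.76, 4.32, 154.5, 307.6 and 303.2 CPM in the non-implanted library. It had 0.792 and 0.721 UMIs per neutrophil-like cell, against 0.0247 and 0.0297 per precursor-like cell, so the difference was in the same direction per cell. Macrophage-like cells had 20.2 and 19.3 CPM, monocyte-like cells 7.29 and 14.2 CPM and erythroid-like cells 0 and 1 UMIs. H2-Q10 reached its step between the immature and transitional stages, where H2-D1 also did. Whether reads of another class I gene were counted as H2-Q10 was not tested.

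Across 20 points, each the sum of one of 10 classes or stages in one library, the genes whose log2(CPM + 5) most resembled the summed presenting genes were Mpeg1 (r = 0.976), Gm2a (0.968), 5031439G07Rik (0.967), Epsti1 (0.960) and Slc43a2 (0.960), out of 9069 compared. For the summed loading and immunoproteasome genes they were Unc93b1 (0.969), Stx7 (0.963), Fndc3a (0.960), Pex13 (0.957) and Etv6 (0.949), and for Nlrc5 they were Lncpint (0.960), Tbc1d5 (0.960), Peli1 (0.955), Tmem135 (0.953) and Adam17 (0.948). Among the 10 genes, B2m and Nlrc5 had r = 0.957, H2-K1 and Nlrc5 0.951, H2-K1 and B2m 0.949 and Psmb8 and Psmb9 0.947. The 2 heavy chains resembled each other less, with r = 0.688, and H2-D1 and Psmb10 had r = 0.231. The points share libraries and differ in depth, and the correlations describe these groups only.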

How the data were processed

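Single-cell RNA was captured with the 10x 3′ V2 kit per the series design text, and the deposited values are UMI counts per gene and barcode that the authors made with Cell Ranger 3.0.1 per the file headers. The build was mm10 (GRCm38) per the submitters' processing notes, which also name Seurat; no authors' cell annotation was used here.

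Barcodes with at least 200 genes and at most 10% mt- UMIs were kept, of 3231 implanted and 3572 non-implanted barcodes. ERCC and transgene rows were left out, which leaves 48709 genes. Doublets were taken as the highest Scrublet scores, 0.8% per 1000 barcodes, since no deposited removal is stated. Cells were clustered with scanpy 1.11.5 (2000 variable genes without the 10 members, 30 components, 15 neighbours) and Leiden (leidenalg 0.10.2, resolution 1). Clusters were named from fixed marker lists, of which at least 3 genes had to reach 10 CPM, and how names were ranked was decided with the clusters in view. One cluster of 41 implanted and 33 non-implanted cells stayed unnamed.

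UMIs were summed per class and library (numpy 2.4.6, pandas 2.3.3) and given as CPM with exact Poisson 95% intervals, and ratios with exact conditional intervals (scipy 1.17.1). The log2 differences used a pseudocount of 5 CPM, which understates the change of low genes. The script was tested on simulated data. Named genes are all 10 members, further pathway genes that passed 20 UMIs and 1.5-fold between libraries (at most the 5 largest per class and direction; 1 that passed is not reported here), and the 5 genes most alike among those with 200 UMIs or more. The members, the lists and the tests were chosen with earlier results of these data known. The counting of reads shared between class I paralogs and overlapping genes (Tap1 with Psmb9, Tapbp with Zbtb22, B2m with Patl2) is not given in the sources used here.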

Additional observations from a re-analysis of the deposited data

How the results depend on the processing

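With 1 library per group no result has a replicate check, and counts were few for Nlrc5 (14 and 20 UMIs in precursor-like cells). No paired analysis was possible because each group has 1 library. All values are log2 differences unless called counts. Scaling by UMIs per cell, leaving out a cluster, and the 2 ratio results were added after seeing the data. The ratio of H2-D1 to H2-K1 (neutrophil-like over precursor-like) and that of immunoproteasome to constitutive subunits kept their direction in all alternatives run for them. Where values changed, the cause was not tested.

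The count of the 10 genes past 1.5-fold between libraries (0 over 4 classes) was 2 with 3000 variable genes and 50 components and 2 with at least 500 genes and at most 5% mt- UMIs (Psmb8 and Psmb9 in macrophage-like cells, -0.59 to -0.63), and 1 with no doublets removed and 1 with more removed (Psmb9 there, -0.62 and -0.64). It was 4 with cells thinned to 1000 UMIs (macrophage-like Tap2 -1.17 and Psmb8 -0.62, neutrophil-like Nlrc5 0.59, precursor-like Tap1 0.60) and 2 with the same weight for every cell (macrophage-like Tap2 -0.65, neutrophil-like Nlrc5 0.63). With separate clustering it was 4, all macrophage-like: Psmb8 -1.39, Psmb9 -0.88, Tapbp -0.79 and Nlrc5 3.89, the last set by the pseudocount, from 48 UMIs in 87 implanted and 0 in 72 non-implanted cells, where the class held 694637 and 128299 UMIs.

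By UMIs per cell, neutrophil-like over precursor-like cells turned to -0.25 and -0.40 for the presenting sum in the implanted and non-implanted libraries (1.32 and 1.22 by CPM), -0.74 and -0.94 for H2-K1, -0.76 and -0.86 for Tapbp, -0.96 for B2m in the implanted and -0.62 for Tap1 in the non-implanted library, and gave -1.38 and -1.40 for the processing sum (loading and immunoproteasome genes; 0.19 and 0.22 by CPM). That scaling moved the median of all genes to -1.14 and -1.11, and median-of-ratios scaling moved it to -0.06 in both, against -0.29 and -0.22 by CPM. Median-of-ratios gave 1.69 and 1.52 for the presenting and 0.56 and 0.52 for the processing sum. The presenting sum was 1.27 and 1.18 with 3000 variable genes, 1.26 and 1.17 with the stricter cell filter, 1.27 and 1.17 with separate clustering, 1.18 and 1.11 with no doublets removed and 1.23 and 1.15 with more removed; in the implanted library it was 1.25 at resolution 2 and 1.43 thinned. The processing sum was 0.35 and 0.32 with the same weight for every cell, 0.072 with more doublets removed (implanted) and 0.49 thinned (non-implanted). H2-D1 over H2-K1 (1.05 and 1.14) was 0.86 and 0.99 with the same weight and 0.83 thinned (non-implanted).

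For implanted over non-implanted macrophage-like cells, the presenting sum (0.03) was -0.064 with 3000 variable genes, 0.12 per cell, -0.18 thinned, -0.36 with separate clustering, -0.093 with the same weight, -0.038 with more doublets removed and -0.13 without the Mmp12 cluster. There the processing sum (-0.29) was -0.82 with separate clustering, and immunoproteasome over constitutive subunits (-0.81) was -0.43 thinned, -0.28 with separate clustering, -0.20 with the same weight and -0.34 without the Mmp12 cluster. Thinning left out 54 implanted and 36 non-implanted macrophage-like cells, which had fewer than 1000 UMIs. In precursor-like cells the presenting sum (-0.05) was -0.15 per cell, -0.17 thinned, 0.047 with separate clustering and -0.14 by median-of-ratios, and the processing sum (-0.03) -0.13 per cell, 0.064 thinned and -0.12 by median-of-ratios. In monocyte-like cells the presenting sum (0.05) was 0.0074 thinned and 0.0022 with the same weight. In neutrophil-like cells (0.04) it was -0.0058 at resolution 2, -0.00086 per cell and 0.14 with separate clustering.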
